A study of Homo sapiens with 6 samples.

Results

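TLE3 binding was described at 9 genes of the Wnt pathway: the ligand gene WNT7B and 8 genes whose products restrain the pathway, namely AXIN1, AXIN2, NKD1, NKD2, SFRP1, DKK1, RNF43 and ZNRF3. Peaks of the 4 deposited lists that shared at least 1 bp were merged, and a merged region belonged to a gene when it lay in the gene's span or when that gene was the nearest protein-coding gene within 100 kb. By this rule 96 of 72272 merged regions belonged to the 9 genes, 65 of them inside a gene span and 31 outside. The genes were chosen by their role and with their siNS and siFOXA1 peaks at hand, so peak counts, ranks and kept shares are given as a description and no test was run on them.

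The data came from chromatin immunoprecipitation and sequencing (ChIP-seq) with a TLE3 antibody in MDA-MB-453 cells, an established breast cancer line. The siFOXA1 cells had FOXA1 silenced transiently (libraries siFOXA1 1 and siFOXA1 2), and the siNS cells, the other arm of the comparison, did not have it silenced (libraries siNS 1 and siNS 2). The title of the series asks how far TLE3 binding needs FOXA1, a pioneer transcription factor of luminal breast cells. All 4 libraries came from 1 cell line and are called biological replicates by the labels, and the labels of the 2 input libraries, which were not analysed here, name the line as MDA-MB-454. The lists hold positions and scores but no reads, so depth is unknown, and neither FOXA1 levels nor any gene's expression could be read from them.

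Wnt ligands such as WNT7B bind Frizzled and LRP receptors and thereby stabilise beta-catenin, which joins TCF/LEF factors on DNA. Without the signal, TCF/LEF factors carry Groucho/TLE corepressors such as TLE3, which do not recognise DNA themselves. The pathway restrains itself at several levels. AXIN1 and AXIN2 are scaffolds of the complex that destroys beta-catenin, NKD1 and NKD2 bind Dishevelled, RNF43 and ZNRF3 are membrane ubiquitin ligases that remove Frizzled, and SFRP1 and DKK1 are secreted antagonists. AXIN2, NKD1, RNF43 and ZNRF3 are well-known transcriptional targets of the pathway.

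Promoter sequences are shown for every member start in the promoter table used, with or without a TLE3 peak, since gene starts are one of the places where the arms differed. The RefSeq promoter table (GRCh38.p14, 250 bases before to 50 after a start) matched 4 of the 9 genes, with 2 promoters for RNF43. Entries for WNT7B, AXIN2, NKD1, SFRP1 and ZNRF3 were missing. Capitals mark the TCF/LEF words CTTTGAT with CTTTGAA and then CTTTGTT, the forkhead words TGTTTAC with TGTTTGC and then TATTTAC, and the GC box GGGCGG, each searched on both strands, so that a GC box on the other strand reads as its reverse complement. The words do not overlap one another in the promoters printed. The sequences are:
AXIN1 (chr16:352674-352973, minus strand): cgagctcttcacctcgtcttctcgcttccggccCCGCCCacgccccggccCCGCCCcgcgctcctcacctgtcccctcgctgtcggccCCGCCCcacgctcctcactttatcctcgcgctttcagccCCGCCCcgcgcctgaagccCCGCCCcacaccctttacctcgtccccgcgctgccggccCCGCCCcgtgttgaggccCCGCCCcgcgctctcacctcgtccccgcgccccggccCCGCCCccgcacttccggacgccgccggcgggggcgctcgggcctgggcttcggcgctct
NKD2 (chr5:1008552-1008851, plus strand): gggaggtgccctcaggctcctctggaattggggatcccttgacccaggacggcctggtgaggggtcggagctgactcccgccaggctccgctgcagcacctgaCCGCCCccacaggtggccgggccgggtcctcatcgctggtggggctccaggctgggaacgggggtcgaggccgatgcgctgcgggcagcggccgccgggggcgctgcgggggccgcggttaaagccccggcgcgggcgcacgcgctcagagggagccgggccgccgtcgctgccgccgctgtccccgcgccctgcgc
DKK1 (chr10:52314031-52314330, plus strand): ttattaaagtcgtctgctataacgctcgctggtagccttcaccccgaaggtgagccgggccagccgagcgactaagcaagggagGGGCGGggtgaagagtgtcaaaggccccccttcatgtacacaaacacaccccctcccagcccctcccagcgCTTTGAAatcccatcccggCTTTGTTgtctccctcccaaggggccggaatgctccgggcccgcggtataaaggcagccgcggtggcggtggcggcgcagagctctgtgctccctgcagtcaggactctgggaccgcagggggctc
RNF43, the start at the end of the gene span (chr17:58417485-58417784, minus strand): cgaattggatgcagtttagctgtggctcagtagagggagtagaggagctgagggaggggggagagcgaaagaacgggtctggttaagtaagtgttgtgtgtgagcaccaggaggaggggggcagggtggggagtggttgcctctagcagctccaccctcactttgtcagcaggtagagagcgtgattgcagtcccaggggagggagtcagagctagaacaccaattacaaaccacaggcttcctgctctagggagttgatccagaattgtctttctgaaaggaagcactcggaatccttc
RNF43, the start within the gene span (chr17:58402672-58402971, minus strand): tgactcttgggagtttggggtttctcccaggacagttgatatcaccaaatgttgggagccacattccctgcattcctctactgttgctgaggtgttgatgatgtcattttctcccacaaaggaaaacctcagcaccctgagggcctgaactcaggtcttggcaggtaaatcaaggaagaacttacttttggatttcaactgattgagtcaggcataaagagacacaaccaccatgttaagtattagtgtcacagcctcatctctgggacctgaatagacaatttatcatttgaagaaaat

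The AXIN1 promoter was 78% G or C and held 8 GC boxes and 44 CpG dinucleotides, and the NKD2 promoter was 77% G or C with 1 GC box and 35 CpGs. Over all 35116 promoters of the table the median was 58.7% G or C and 14 CpGs, and 45.0% held a GC box. The DKK1 promoter held 2 TCF/LEF words and 1 GC box. Any of the 3 TCF/LEF words was found in 11.5% of all promoters. No forkhead word lay in the 5 windows printed, against 9.57% of all promoters with any of the 3. The E-box CANNTG matched 4 times in the inner RNF43 promoter, 2 times in NKD2 and 1 time in AXIN1, against 68.7% of all promoters with a match. Word matches describe these letters only.

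No siFOXA1 peak overlapped these 5 windows, and siNS peaks overlapped 4 of them. Over all 35116 promoters of the table, a peak of at least 1 siFOXA1 library overlapped 1.72%, and a peak of at least 1 siNS library overlapped 45.0%. The AXIN1 window was covered over 300 bases in siNS 1 and 289 in siNS 2. NKD2 and the outer RNF43 window were covered in full in both siNS libraries. The DKK1 window was covered over 265 bases in siNS 1 alone. The inner RNF43 window, which held no CpG, had no peak in any library.

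Peaks at the 9 genes were fewer in both siFOXA1 libraries than in both siNS libraries. The genes held 16 peaks of siFOXA1 1 and 13 of siFOXA1 2, against 75 of siNS 1 and 66 of siNS 2. The group means were 14.5 ± 2.12 peaks in siFOXA1 and 70.5 ± 6.36 in siNS (SD, n = 2 each), and the groups did not overlap. The whole lists, counted on chromosomes 1 to 22, X and Y, differed in the same direction. They held 12249 and 13754 peaks in siFOXA1 1 and 2, and 45105 and 46586 in siNS 1 and 2. As a share of the list, the 9 genes took 0.131% of siFOXA1 1 and 0.0945% of siFOXA1 2 peaks, against 0.166% of siNS 1 and 0.142% of siNS 2 peaks. The sequence covered at the 9 genes was 6.62 and 5.01 kb in siFOXA1 1 and 2, against 50.7 and 41.9 kb in siNS 1 and 2. List length depends on sequencing depth and immunoprecipitation yield as well as on occupancy, and these cannot be told apart here.

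**Figure D1:**
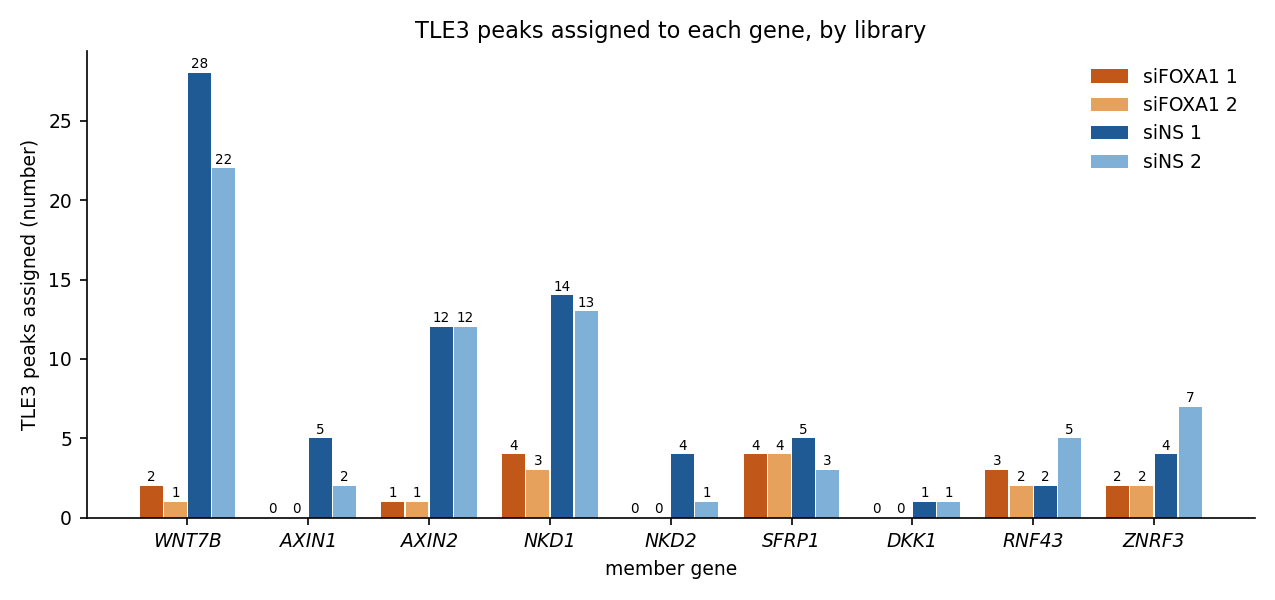
Number of TLE3 peaks assigned to each of the 9 genes (horizontal axis) in the 2 siFOXA1 libraries (orange) and the 2 siNS libraries (blue). WNT7B had 2 and 1 peaks in siFOXA1 and 28 and 22 in siNS, whereas SFRP1 had 4 in each siFOXA1 library against 5 and 3 in siNS.

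A siNS consensus region held peaks of both siNS libraries, and it counted as kept when a peak of at least 1 siFOXA1 library lay in it. The 9 genes had 39 siNS consensus regions, at 8 of the genes, and 9 were kept (23.1%, exact 95% binomial interval 11.1 to 39.3%). Over all 24967 siNS consensus regions 17.0% were kept. With all 4 lists shortened to the 12249 highest-scoring peaks, 9 of the genes' 19 siNS consensus regions were kept (47.4%), against 32.3% of all. A siFOXA1 1 peak lay in 9 of the 39 and a siFOXA1 2 peak in 7, against 13.4% and 14.0% of all siNS consensus regions. Without siNS 2, when every siNS 1 region counts, 12.0% of the genes' 75 regions were kept, against 9.55% of all. Without siNS 1, when every siNS 2 region counts, 19.7% of the genes' 66 regions were kept, against 17.3% of all. The binomial interval covers counting error only, treats regions of the same gene as independent, and was not used as a test.

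All 9 kept regions belonged to 3 genes, namely SFRP1 with 3 of 3, NKD1 with 4 of 8 and WNT7B with 2 of 13. None was kept at AXIN2 with 7 siNS consensus regions, ZNRF3 with 3, AXIN1 and RNF43 with 2 each and NKD2 with 1, and DKK1 had no such region. At least 1 siNS consensus region was assigned to 61.6% of the 20037 protein-coding genes. The kept regions were strong in siNS. Their median position was 6.003% from the top of the siNS lists, against 32.8% for the 30 without a siFOXA1 peak, and over all siNS consensus regions the same medians were 13.9% and 36.6%.

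WNT7B (chr22:45920366-45977162, 56.8 kb) had 33 merged regions, 20 of them inside its span, spread over 97.6 kb. It had 13 siNS consensus regions, and 27 of the 20037 protein-coding genes had more. Peaks numbered 2 in siFOXA1 1 and 1 in siFOXA1 2, against 28 in siNS 1 and 22 in siNS 2. Inside the span this came to 14.1 siNS consensus regions per 100 kb, against 9.07 for AXIN2, 4.96 for NKD1 and 1.72 for ZNRF3. Counting every region of the remaining siNS library, WNT7B had 22 without siNS 1 and 28 without siNS 2, and counts without a siNS library below are meant in the same way. The count was 7 when peaks below their list's median score were dropped, equal to that of NKD1. With lists of equal length WNT7B had 4 siNS consensus regions, against 6 for NKD1, 3 each for AXIN2, SFRP1 and ZNRF3 and none for the other members.

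Both ends of WNT7B carried strong siNS regions. At the lower-coordinate end, chr22:45918581-45920382 ranked 10393 of 12249 in siFOXA1 1, had no siFOXA1 2 peak, and ranked 559 of 45105 in siNS 1 and 1035 of 46586 in siNS 2, where rank 1 is the highest score of a list. At the higher-coordinate end, chr22:45974502-45977771 was the widest member region of all with 3270 bp, had no siFOXA1 peak, and ranked 1669 in siNS 1 and 4769 in siNS 2. The lists differ in length, so positions within them describe each list and show no change between the arms. From the top, the region at the lower end stood at 1.24% of siNS 1, 2.22% of siNS 2 and 84.8% of siFOXA1 1. It was the only kept one among 10 siNS consensus regions at gene ends (within 1 kb of either end of a protein-coding gene).

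Inside WNT7B, 1 region was called in all 4 libraries. It lay 14100 bp from the lower end, at chr22:45934466-45935714, and ranked 4968 in siFOXA1 1 and 3979 in siFOXA1 2, against 2997 in siNS 1 and 2498 in siNS 2. The centres of the best siFOXA1 and siNS peaks lay 112 bp apart there. All other WNT7B regions lacked siFOXA1 peaks, except the one at the lower end described above.

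The remaining 10 WNT7B regions of both siNS libraries lay on either side of the gene and inside it. Before the lower end were chr22:45911054-45912876, at ranks 3717 in siNS 1 and 5304 in siNS 2, and chr22:45916459-45917438, at 14369 and 17034. Inside lay chr22:45930114-45930781 at ranks 9470 in siNS 1 and 14105 in siNS 2, and 4 others further along that were weaker. Those 4, chr22:45948373-45948744, chr22:45959605-45960965, chr22:45966443-45967284 and chr22:45970996-45972253, lay 52.4 to 71.5% from the top on average over both siNS lists. Beyond the higher end, chr22:45978541-45979480 lay 1379 bp away and ranked 7947 in siNS 1 and 27589 in siNS 2. The 2 most distant were chr22:45994722-45995240, at ranks 28285 and 38339, and chr22:46005805-46008050, at ranks 10148 and 18814, which overlaps the non-coding gene LOC730668.

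**Figure D2:**
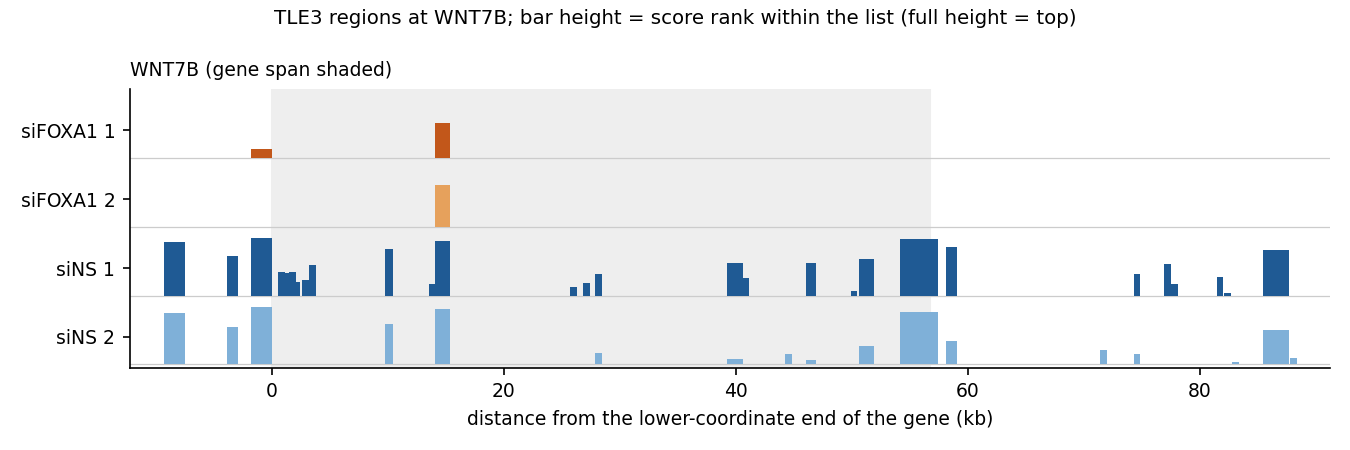
Map of the merged TLE3 regions at WNT7B by distance from the lower-coordinate end of the gene in kb (horizontal axis), 1 row per library, gene span shaded. Bar height is the rank of the region's best peak within its list (full height is the top), and narrow regions are drawn at a minimum width. The siFOXA1 rows hold 2 and 1 bars, whereas the siNS rows hold 28 and 18, with tall bars at both ends of the gene.

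AXIN2, the scaffold gene that is a classic target of Wnt signalling, had no siNS consensus region with a siFOXA1 peak. Its span (chr17:65528563-65561648) held 11 of its 17 regions. The strongest covered the higher-coordinate end, at chr17:65560191-65562282, was 2092 bp wide, and ranked 351 of 45105 in siNS 1 and 1316 of 46586 in siNS 2, with no siFOXA1 peak. Inside the gene, chr17:65554545-65555365 ranked 8363 in siNS 1 and 906 in siNS 2. Both regions were thus within the top 2% of at least 1 siNS list and absent from both siFOXA1 lists.

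Other AXIN2 regions of both siNS libraries were further away or weak. At 23309 bp beyond the higher end, chr17:65584957-65585769 ranked 7798 in siNS 1 and 14756 in siNS 2. On the other side, chr17:65460237-65460965 lay 67598 bp from the gene and ranked 9619 and 11182, and chr17:65487585-65488975 lay 39588 bp away and ranked 19576 and 30148. The 2 weakest were chr17:65546015-65546428 inside the gene and chr17:65438680-65439131, which stood 91.3 and 92.6% from the top on average over the siNS lists. The region chr17:65438680-65439131 was the farthest of all from its gene, with 89432 bp, and no region beyond the 100 kb limit had a member as its nearest gene. AXIN2 had 12 regions both without siNS 1 and without siNS 2, and 3 siNS consensus regions with a limit of 10 kb.

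A siFOXA1 consensus region without a siNS peak also lay inside AXIN2. This region, chr17:65542692-65543040, ranked 10594 of 12249 in siFOXA1 1 and 6202 of 13754 in siFOXA1 2. Only 1 base separated it from chr17:65543042-65543361, a region of siNS 2 at rank 34028. Its class therefore rests on the 1 bp rule.

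By the assignment rule AXIN1, the constitutive scaffold gene (chr16:287440-352723), had peaks in siNS only, and few. Its 2 siNS consensus regions lay side by side at its start, and the promoter shown above lies in the second. Only 6 bases separated them, and with peaks widened by 250 bp AXIN1 had 1 siNS consensus region. With gene spans widened by 10 kb and other genes ignored, AXIN1 had 4 siNS consensus regions and WNT7B 11. The region chr16:351907-352338 ranked 17308 in siNS 1 and 26948 in siNS 2, and chr16:352345-353480 ranked 19627 and 20509. Both stood 43.8 to 48.1% from the top on average, well below the end regions of AXIN2 and WNT7B. The other 3 regions, 1 beyond the start and 2 in the span, were called in siNS 1 alone, so without siNS 2 AXIN1 had 5 regions.

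NKD1, a Dishevelled-binding inhibitor, kept 4 of its 8 siNS consensus regions, 3 of them with peaks in all 4 libraries. The region before its lower end, chr16:50530471-50531237, ranked 1372 in siFOXA1 1 and 1357 in siFOXA1 2, against 8228 in siNS 1 and 1953 in siNS 2. It stood 10.5% from the top on average in the siFOXA1 lists and 11.2% in the siNS lists, the highest siFOXA1 position among the 7 member regions called in all 4 libraries. Within the span (chr16:50548396-50649249), chr16:50596560-50597505 ranked 5305 in siFOXA1 1 and 5053 in siFOXA1 2, against 464 in siNS 1 and 716 in siNS 2.

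The third NKD1 region of all 4 libraries, chr16:50602481-50603047, lay where the non-coding antisense gene NKD1-AS1 overlaps NKD1. It ranked 4953 in siFOXA1 1 and 6019 in siFOXA1 2, against 5014 in siNS 1 and 7542 in siNS 2, whose lists are longer. From the top of each list it stood at 40.4 and 43.8% in siFOXA1 1 and 2, and at 11.1 and 16.2% in siNS 1 and 2. Another, chr16:50591330-50592860, had a siFOXA1 peak in siFOXA1 1 alone, at rank 5702 (46.6% from the top). It ranked 3358 (7.44%) in siNS 1 and 6588 (14.1%) in siNS 2. These 3 intragenic kept regions lay within about 12 kb of one another, near the middle of the gene.

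Without a siFOXA1 peak was the region over the lower-coordinate end of NKD1, chr16:50547355-50549134, at ranks 3954 in siNS 1 and 10096 in siNS 2. The same held for chr16:50597875-50598951, which lies between kept regions, at ranks 7559 and 15423. Before the gene, chr16:50505715-50506669 ranked 4610 in siNS 1 and 4765 in siNS 2, and chr16:50467924-50468651, 79745 bp away, ranked 6362 and 25750. The NKD1 regions with and without siFOXA1 peaks thus overlapped in siNS rank. Without siNS 1 NKD1 had 13 regions, without siNS 2 it had 14, and with a limit of 10 kb it had 5 siNS consensus regions.

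NKD2, the paralogue on chromosome 5 (1008802 to 1038943), had 4 regions and no siFOXA1 peak. Only chr5:1008357-1009264, over its start and over the promoter shown above, was called in both siNS libraries, at ranks 28418 in siNS 1 and 28178 in siNS 2. The other 3 came from siNS 1 alone, so NKD2 had 4 regions without siNS 2. With gene spans widened by 10 kb and other genes ignored, NKD2 had 2 siNS consensus regions.

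RNF43 and ZNRF3, the ligases that clear Frizzled from the membrane, had siFOXA1 regions in places where siNS 1 had no peak. RNF43 (chr17:58352500-58417534) had 3 peaks in siFOXA1 1 and 2 in siFOXA1 2, against 2 in siNS 1 and 5 in siNS 2. Near the middle of its span, chr17:58387804-58388187 ranked 1536 in siFOXA1 1 and 12138 in siFOXA1 2, with no siNS peak. Close by, chr17:58391340-58391991 ranked 6456 in siFOXA1 1 and 10293 in siFOXA1 2, and 4727 in siNS 2 alone. A further region, chr17:58381175-58381599, was shared by siFOXA1 1 at rank 10512 (85.8% from the top) and siNS 2 at rank 19622 (42.1%).

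The 2 siNS consensus regions of RNF43 lay at its ends. The region at the outer start, chr17:58417455-58417821, ranked 12820 in siNS 1 and 20927 in siNS 2. At the opposite end, chr17:58351910-58352721 ranked 4579 in siNS 1 and 13244 in siNS 2. This second region also covered the listed start of SUPT4H1, a transcription elongation gene, and overlapped TSPOAP1-AS1, so its assignment to RNF43 was a tie. RNF43 had 5 regions without siNS 1.

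ZNRF3 (chr22:28883572-29057488, 174 kb) had 2 peaks in each siFOXA1 library, against 4 in siNS 1 and 7 in siNS 2. Both siFOXA1 consensus regions lay deep inside the gene. The first, chr22:28963200-28963798, ranked 752 in siFOXA1 1 and 3176 in siFOXA1 2, and only 41854 of 46586 in siNS 2, with no peak in siNS 1. The second, chr22:28952847-28953475, ranked 3709 in siFOXA1 1 and 1980 in siFOXA1 2, and 16359 in siNS 2.

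Elsewhere in ZNRF3 the siNS consensus regions had no siFOXA1 peak. The strongest, chr22:28923736-28924542, ranked 1409 in siNS 1 and 1460 in siNS 2. The region chr22:29030498-29031246 ranked 2518 in siNS 1 and 5088 in siNS 2 and lay 230 bp from the listed start of the antisense gene ZNRF3-AS1. The third covered the lower-coordinate end of the gene, chr22:28882658-28884769, at ranks 5425 and 7549. No ZNRF3 region thus held peaks of both siNS libraries and a siFOXA1 peak, although both siFOXA1 consensus regions held a siNS 2 peak. Without siNS 1 the gene had 7 regions.

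SFRP1, a secreted antagonist (chr8:41261962-41309473), was the member whose siNS consensus regions were all called in both siFOXA1 libraries. The strongest, chr8:41323033-41324778, lay 13560 bp beyond the higher end and ranked 1864 in siFOXA1 1 and 2449 in siFOXA1 2, against 239 in siNS 1 and 485 in siNS 2. It held 2 peaks in each siFOXA1 library. Next to it, chr8:41315211-41316294 ranked 9187 in siFOXA1 1 and 5536 in siFOXA1 2, against 320 in siNS 1 and 1111 in siNS 2. Inside the gene, chr8:41286213-41287143 ranked 5062 and 6000 in siFOXA1 1 and 2, against 9861 and 8389 in siNS 1 and 2.

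None of the 3 SFRP1 regions was at a gene end, and the other 2 SFRP1 regions were called in siNS 1 alone. Without siNS 2 SFRP1 had 5 regions, of which the same 3 held siFOXA1 peaks.

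DKK1, a secreted antagonist that binds LRP receptors (chr10:52314281-52317657), had no region of more than 1 library. The region over its start, chr10:52314066-52314783, was called in siNS 1 alone, at rank 19977. A region 31562 bp away came from siNS 2 alone, at rank 37358.

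**Figure D3:**
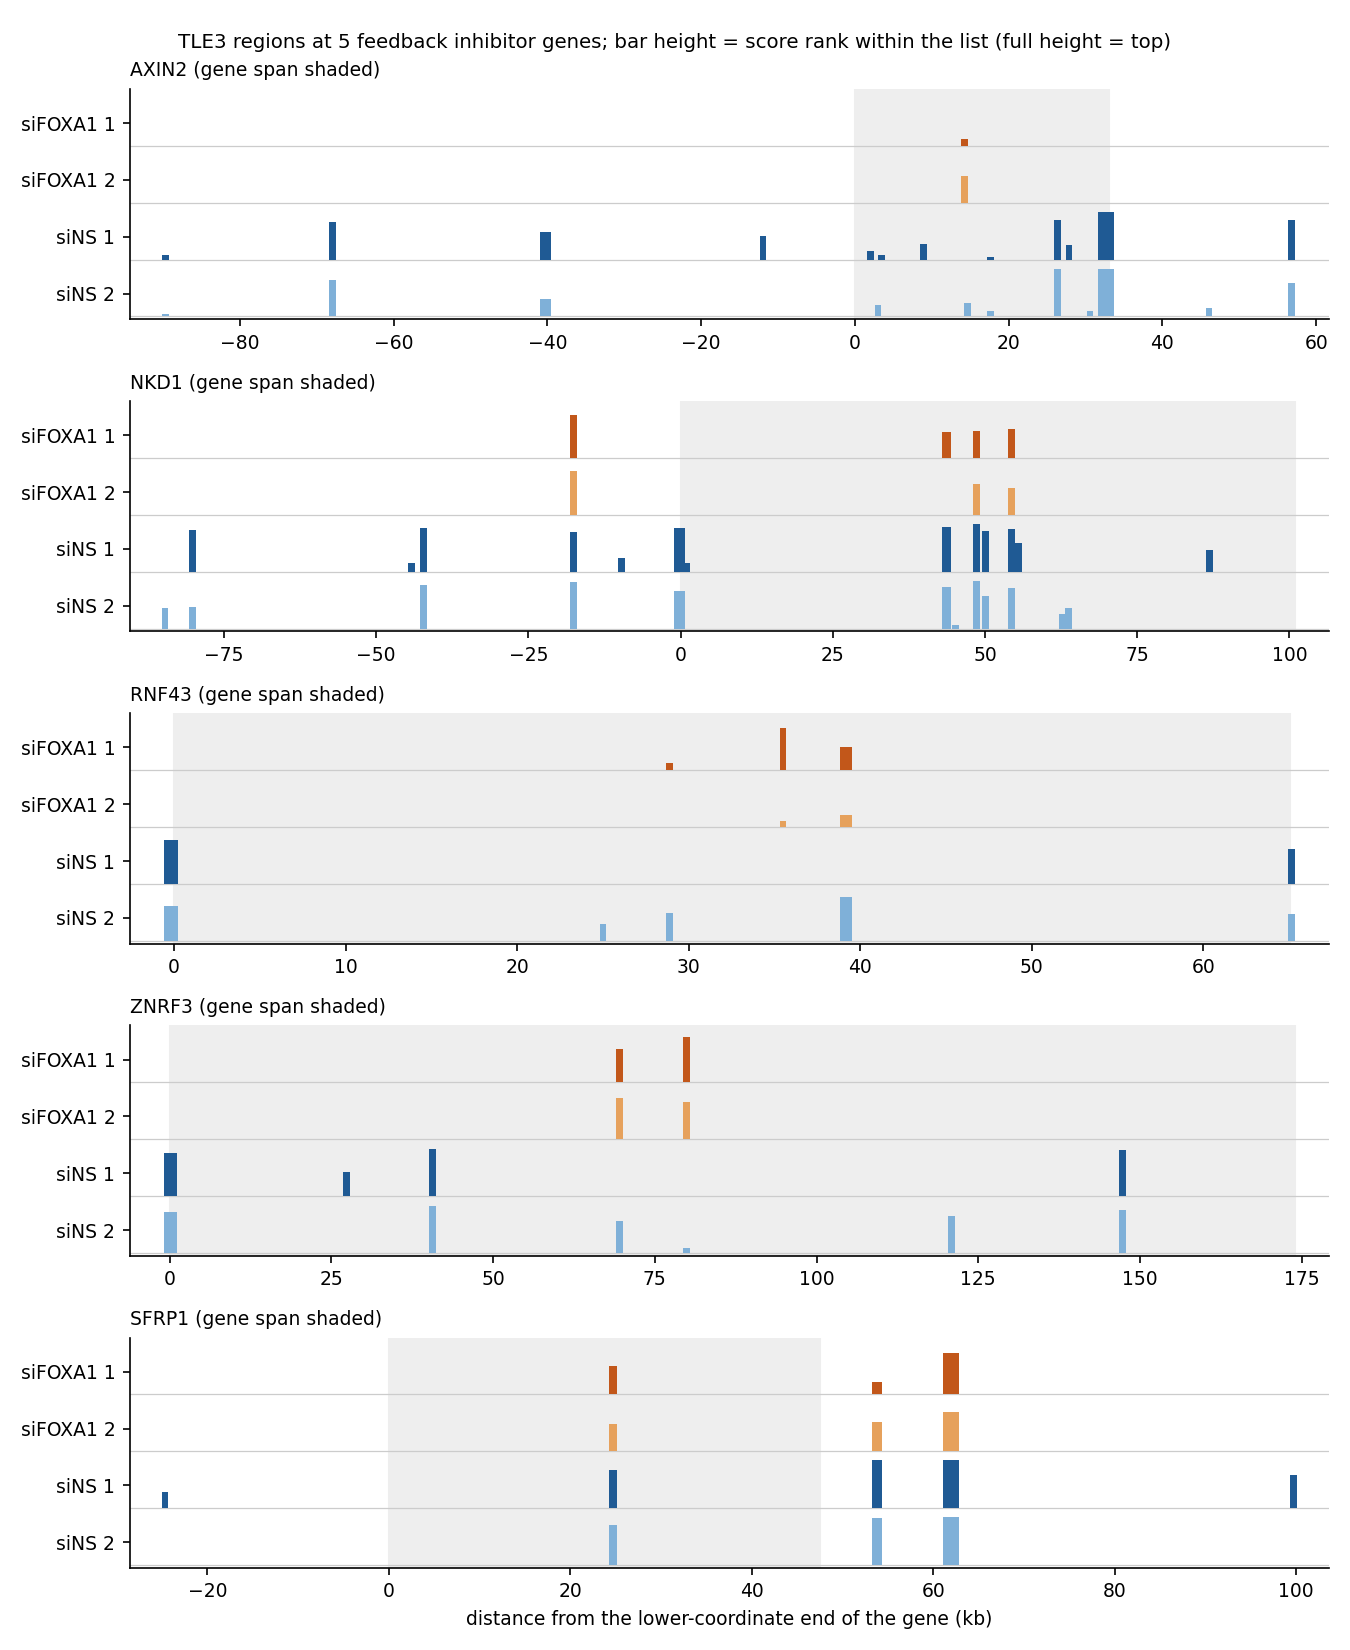
Maps of the merged TLE3 regions at AXIN2, NKD1, RNF43, ZNRF3 and SFRP1 by distance from the lower-coordinate end of each gene in kb (horizontal axes, scales differ), 1 row per library, gene spans shaded. Bar height is the rank of the region's best peak within its list (full height is the top), with a minimum width for narrow regions. SFRP1 shows bars in all rows at 3 places, and ZNRF3 shows siFOXA1 bars where siNS 1 has none.

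Most of the 9 genes had a siNS region at an end of the gene, whatever their number of regions. A siNS consensus region lay within 1 kb of the gene's own end at 7 of the 9 genes, all but SFRP1 and DKK1, and 55.1% of all protein-coding genes had one so placed. A siFOXA1 peak lay there at WNT7B only, 1 of 9, against 4.92% of all genes. Of the 39 siNS consensus regions 10 were at gene ends (25.6%), against 42.7% of all, and 25 lay inside a gene span (64.1%), against 72.8%. Of those 10, 1 was kept, against 6.28% of all such regions. Of the other 29, 8 were kept (27.6%), against 24.9% of all.

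Strength and retention went together at these genes as they did in the whole series. Of the 39 siNS consensus regions 8 fell in the strongest 10% by mean siNS rank, and 5 of them were kept, against 58.3% of all regions in that class. In the next 10%, 3 of 8 were kept, against 26.9% of all. The 3 lost regions of the strongest class were those at the higher-coordinate ends of AXIN2 and WNT7B and the one inside ZNRF3 at chr22:28923736-28924542. In the weaker 5 classes, none of 15 member regions was kept, against 7.33% of all.

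**Figure D4:**
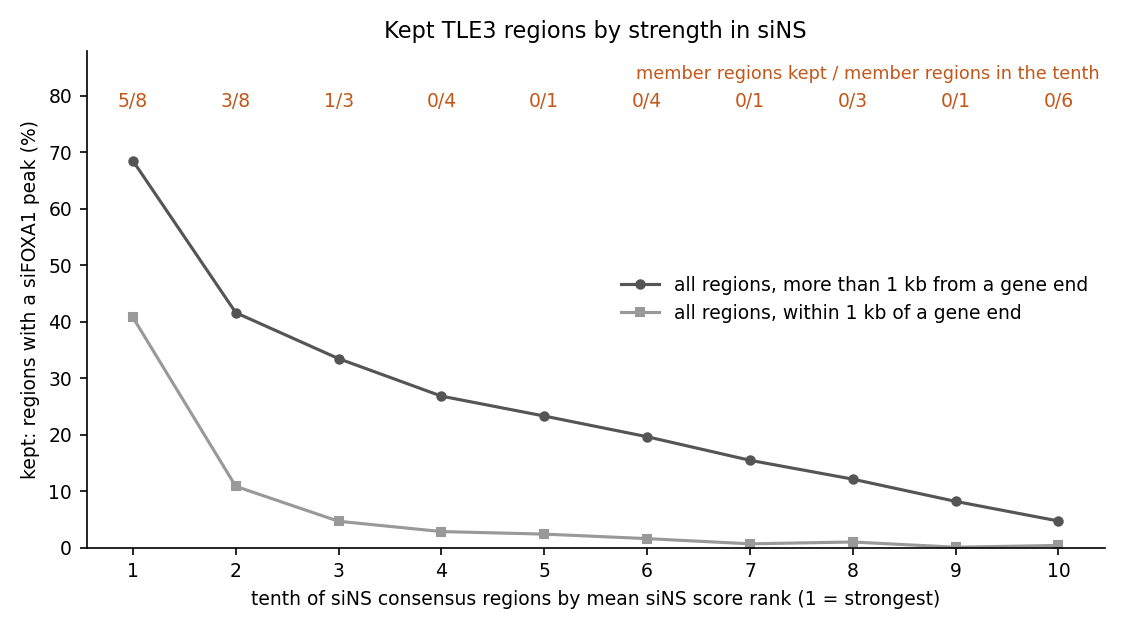
Share of all siNS consensus regions with a siFOXA1 peak (vertical axis, %) by class of siNS strength, each holding 10% of regions with the strongest at the left (horizontal axis), for regions more than 1 kb from a gene end (dark line) and within 1 kb (light line). Orange fractions give the kept and total member regions of each class, which run from 5 of 8 in the strongest class to 0 of 6 in the weakest.

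The 9 genes had 12 siFOXA1 consensus regions, at 6 of the genes, with a peak of both siFOXA1 libraries. Over all protein-coding genes 19.4% had one. A siNS 1 peak lay in 7 of the 12 and a siNS 2 peak in 10, against 32.7% and 59.0% of all siFOXA1 consensus regions, so the siNS libraries differed in their overlap with siFOXA1 at these genes as in the whole lists. No siNS peak lay in 2 of the 12, those inside AXIN2 and RNF43, against 40.0% of all. None of the 12 was at a gene end, against 4.94% of all. The 7 regions of all 4 libraries stood 10.5 to 57.6% from the top of the siFOXA1 lists and 0.785 to 19.9% from the top of the siNS lists. The lists differ in length, so these positions describe each list and show no change between them. In the 9 kept regions the centres of the best siFOXA1 and siNS peaks lay 22 to 357.5 bp apart (median 124.5 bp).

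**Figure D5:**
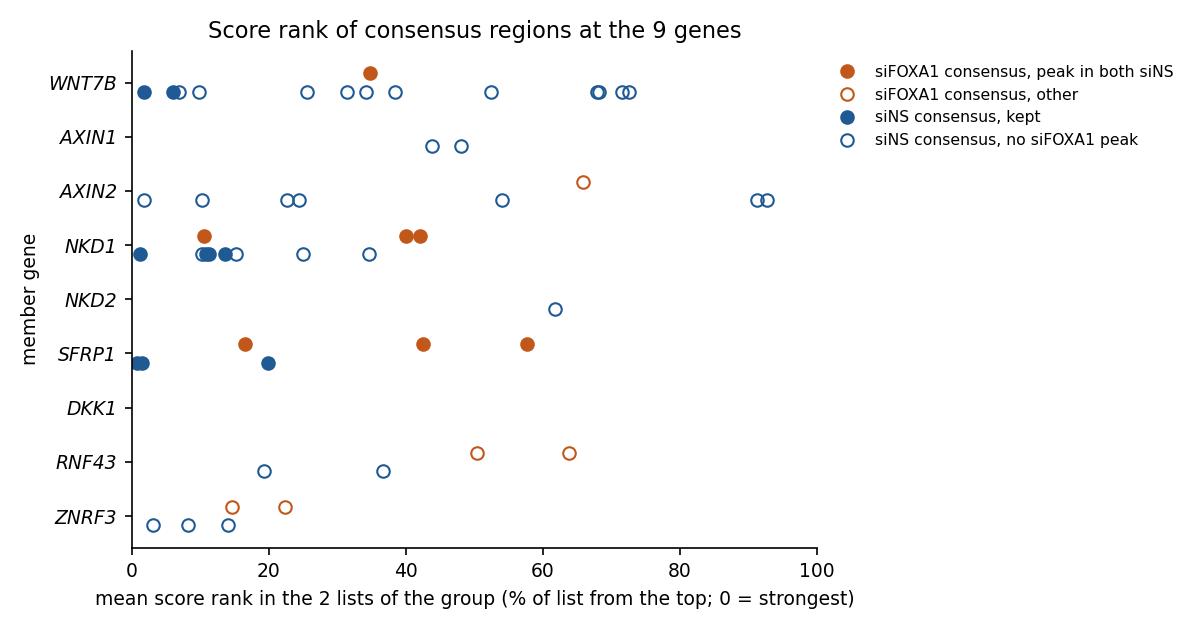
Mean score rank of the members' consensus regions within the lists of their group, as a percent of the list from the top (horizontal axis, 0 is the strongest), with siFOXA1 regions (orange) above siNS regions (blue) for each gene. Filled circles are siFOXA1 regions with peaks of both siNS libraries or siNS regions that were kept. Filled blue circles all lie within 20% of the top, and AXIN1, AXIN2, NKD2, RNF43 and ZNRF3 have open circles only.

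Many member regions came from a single library. Of the 96 regions 51 (53.1%) were called in 1 library, 35 in siNS 1 and 16 in siNS 2. Of all merged regions 47.1% were in 1 siNS library alone, a share that leaves out regions of a single siFOXA1 library. The siNS 1 regions lay 31.3 to 94.8% from the top of their list (median 70.4%) and the siNS 2 regions 23.1 to 98.5% (median 78.3%). WNT7B held 20 of the 51, of which 15 were from siNS 1, and 6 of those 15 formed a run within 4 kb of its lower end.

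Other genes of the Wnt pathway also carried TLE3 regions, with 20.5% of them against 19.4% of all protein-coding genes in siFOXA1, and 74.0% against 61.6% in siNS. Of 73 further Wnt genes, all matched by symbol, 15 had a siFOXA1 consensus region and 54 a siNS consensus region. They held 136 siNS consensus regions, of which 14 were kept (10.3%), against 17.0% of all. The median was 1 siNS consensus region per gene for these 73 and for all protein-coding genes, and 3 for the 9 members. By role, a siNS consensus region was found at 14 of 18 other Wnt ligand genes, 14 of 15 receptor genes, 9 of 10 transducer genes, 9 of 9 nuclear factor genes and 3 of 11 other secreted or surface inhibitor genes. R-spondins and their receptors had one at 3 of 7 genes and the genes of ligand secretion at 2 of 3.

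The listed genes with the most siNS consensus regions were LGR6, an R-spondin receptor, and WNT9A, a ligand, with 11 each. BCL9L, a beta-catenin coactivator, had 9, LRP5, a coreceptor, 6, and CTNNBIP1, which blocks beta-catenin from TCF, 5. WNT2B, WNT3A, WNT11 and TCF7L2 also had 5, after CTNNBIP1 in the alphabet. LGR6 kept 3 of its 11 and BCL9L 3 of its 9, and WNT9A, LRP5 and CTNNBIP1 kept none. In siFOXA1, LGR6 and WNT3A had 3 consensus regions each, and APC, BCL9 and BCL9L 2 each. ROR1 and ROR2 also had 2 each, after these in the alphabet.

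The genes whose peak counts were most like those of WNT7B over the 4 libraries were GNG7, TSPAN9, GRM4, METRNL and CCDC85C. Likeness was the smallest Euclidean distance between log2(peaks + 1), which ran from 0.31 for GNG7 to 0.61 for CCDC85C. GNG7 had 2 and 1 peaks in siFOXA1 1 and 2, against 31 and 18 in siNS 1 and 2. METRNL had 2 and 1, against 22 and 16.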

How the data were processed

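Per the labels' protocols, cells were cross-linked with a further reagent before formaldehyde, and libraries were made from input and immunoprecipitated DNA. Each ChIP library has a peak list of its own, with a score per peak that is the authors' deposited value and whose definition is not stated. Per the submitters' processing notes, Trim Galore, BWA 0.7.5a, SAMtools and MACS2 were used on hg38; neither settings nor the role of the inputs are stated. Scores served only for ranks within each list.

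Groups and replicate numbers came from the sample titles (the list of siFOXA1 2 carries another number in its name). Peaks on chromosomes 1 to 22 and X were kept, and 3 to 9 mitochondrial peaks per list were dropped. Gene spans came from RefSeq on GRCh38.p14, with 20037 protein-coding genes. That table has no exons, so a place inside a gene could not be split into exon and intron. Where spans overlapped, the gene with the nearer end was taken. Strength was the mean siNS rank in percent of the list, in 10 equal classes. The genes, the Wnt list and all rules were chosen with earlier results of these data known. Named were all members, the 5 listed Wnt genes with the most regions in each group, and the 5 genes most like WNT7B (ties alphabetical). No test was run. Alternatives were a score threshold, overlap, list length, distance, assignment, peak width and leaving out each library. Merging was checked against bedtools 2.31.1 and tested on simulated data. No protein sequences were used here. Python 3.11.15, numpy 2.4.6, scipy 1.17.1 and matplotlib 3.10.9 were used.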

Additional observations from a re-analysis of the deposited data

How the results depend on the processing

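Across 11 alternatives the 5 summary values of the 9 genes moved by over 1.5 times in 7 of 55 cases. The 96 merged regions became 47 when peaks below their list's median score were dropped, and 33 with lists of equal length (12249 peaks each). With lists of equal length the 39 siNS consensus regions became 19 and the kept share 47.4%, against 32.3% over all siNS consensus regions in such lists, with 9 of 19 kept. Leaving out each library in turn gave 68 to 96 merged regions, 39 to 75 siNS consensus regions and 12 to 15 siFOXA1 consensus regions. The kept share was then 12.0 to 23.1%, against 9.55 to 17.3% over all siNS consensus regions in the same settings. Of the members' siNS consensus regions, 18.2 to 25.6% lay at gene ends. The higher counts without a siNS library follow from the definition, which then asks for 1 siNS peak. Counts of siNS consensus regions per gene moved by over 1.5 times in 29 of 99 cases, 15 up and 14 down. No paired analysis was possible because no result comes from a test. The lists give no reads, so depth is unknown and a missing peak is a peak not called.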
